A study of Mus musculus with 6 samples.

Results

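The members described here are the BMP target genes of the Id family and the genes of the inhibitory Smads, namely Id1, Id2, Id3, Id4, Smad6 and Smad7, as they were expressed in D2.OR mouse breast cancer cells. They are 6 of the 22180 genes that the array measured with a transcript cluster of their own, a cluster being the set of probes read out as 1 value. Each gene was represented by the cluster that carries its symbol alone and has the highest mean over the 6 arrays, and each of the 6 members had exactly 1 such cluster. This choice of cluster used the gene names and mean signals and no difference between groups. The members themselves were chosen with earlier results of these data known.

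BMPs are secreted ligands of the TGF-beta superfamily that assemble type I and type II receptor kinases. The activated receptors phosphorylate Smad1, Smad5 and Smad9, which enter the nucleus with Smad4 and switch on target genes, the Id genes being the best known among them. ID proteins have a helix-loop-helix domain but no DNA-binding region, so that they hold the E proteins Tcf3, Tcf4 and Tcf12 in dimers that cannot bind DNA. In the mammary gland they have been linked to differentiation, proliferation and metastatic outgrowth, with roles that differ between the members. Smad6 and Smad7 are induced by the same signals and act as feedback inhibitors at the receptors, Smad6 mainly against BMP signals and Smad7 against both TGF-beta and BMP signals.

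All 3 groups were D2.OR cells, a line from a mouse hyperplastic alveolar nodule that lies latent after dissemination, and all were grown in 3D-culture for 7 days on a basement membrane cushion before total RNA was taken. Parental cells carried an empty vector. BORG cells stably expressed BORG, a long noncoding RNA first known as a gene responsive to BMP and osteogenic protein. BORG/sgTRIM28 cells expressed BORG and had in addition received Cas9 and a guide RNA against Trim28, the gene of a corepressor protein, by lentiviral transduction with drug selection. According to the methods these D2.OR derivatives were engineered to express firefly luciferase, and no use of single-cell clones or of a non-targeting guide in the other groups is stated for the arrays. The labels name biological replicates without saying what was repeated. The limma p-values rest on the spread between the 2 arrays of a group, pooled over the 3 groups and drawn toward that of all clusters. That spread may be technical. Comparisons of BORG with parental cells ask what followed BORG expression. Comparisons with BORG/sgTRIM28 cells ask what went with the targeting of Trim28, which cannot be told apart here from transduction, Cas9 or drug selection.

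The 6 arrays had similar log2 signals, with medians between 5.18 and 5.24 over 41345 transcript clusters, and no array was left out. Trim28 had log2 signals of 10.49 and 10.68 in parental cells, 9.88 and 9.96 in BORG cells and 9.50 and 9.53 in BORG/sgTRIM28 cells. The targeted transcript was lowest in the cells that received the guide, but both BORG arrays already read under both parental arrays. An insertion at the guide's site need not lower the transcript. No detection value was used, so it is unknown which signals lay above background. Of the epithelial markers that the D2.OR label implies, Epcam stayed under the median of its array on all 6 arrays, with log2 signals of 4.68 to 5.01, and Cdh1 read 6.19 to 6.84. The keratins Krt8, Krt18 and Krt14 read between 9.55 and 11.37, while Krt19 read between 4.49 and 4.96, under the median of each array.

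Id2 and Id3 are the members on which the results turn, and the bases just before their transcription starts are shown because BMP-activated Smads act on the regulatory DNA of the Id genes. The sequences are those of RefSeq on build GRCm38.p6, read 5′ to 3′ on the strand of the gene and ending at the base before the start. Windows of 300 bases, from 250 before the start to 50 after it, were found for 4 of the 6 members and were searched on both strands for GGCGCC, a GC-rich element bound by BMP-activated Smads, CAGAC, the Smad-binding element, GTCTAGAC, its palindromic form, TGACGTCA, the cyclic AMP response element, and CANNTG, the E box that E proteins bind. Capitals mark matches to any of the first 4 motifs in the 250 bases printed for Id2 (chr12:25096093-25096342, minus strand) and Id3 (chr4:136143572-136143821, plus strand).
Id2: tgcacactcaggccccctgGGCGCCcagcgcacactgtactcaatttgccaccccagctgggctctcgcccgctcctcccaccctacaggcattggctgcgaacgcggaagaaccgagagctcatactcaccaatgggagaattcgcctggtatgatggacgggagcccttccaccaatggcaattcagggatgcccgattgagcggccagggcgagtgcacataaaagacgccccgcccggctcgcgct
Id3: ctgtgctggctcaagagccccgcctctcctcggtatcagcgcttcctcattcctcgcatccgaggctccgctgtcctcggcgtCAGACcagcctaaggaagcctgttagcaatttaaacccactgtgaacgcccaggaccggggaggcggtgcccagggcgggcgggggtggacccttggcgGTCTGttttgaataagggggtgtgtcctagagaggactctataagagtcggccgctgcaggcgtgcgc
The Id2 window held 1 GGCGCC, which begins 231 bases before the start, and 1 E box at 196 bases before it. In Id3 there was no GGCGCC and there were 2 matches to CAGAC, beginning 167 and 68 bases before the start, of which the second reads GTCTG on the strand shown. GGCGCC occurred in 11.9% and CAGAC in 49.6% of 32851 windows of the same length, and the E box in 72.3%, so that each of these matches is a common feature. The window of Id4 held 1 GGCGCC at 148 bases before the start. Smad6 held 1 GTCTAGAC, which begins 4 bases before the start and runs across it, a match found in 0.213% of the windows. The start used for Smad6 lies inside the gene span given below, not at its end. TGACGTCA, present in 1.79% of the windows, matched none of the 4. No window was used for Id1 or Smad7, and DNA further from the starts was not searched. Whether Smads bind any of these matches was not tested.

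Id2 encodes the ID protein that in the mammary gland is best known for its part in alveolar differentiation, and its gene lies at chr12:25093799-25096092. It was lowest in BORG cells, intermediate in parental cells and highest in BORG/sgTRIM28 cells. In log2 units its signal read 9.94 and 9.89 in parental, 9.11 and 8.90 in BORG and 10.95 and 11.09 in BORG/sgTRIM28 cells. No array of 1 group reached into another group, and the groups were separated by 0.78 and 1.01 log2 units while the 2 arrays of a group lay at most 0.21 apart. Against BORG/sgTRIM28 cells Id2 fell by 2.01 on the log2 scale in BORG cells (95% interval −2.32 to −1.71, adjusted p = 0.000963 from limma), which left 24.8% of the signal and ranked 28 from the lowest among the 41345 clusters. Against parental cells it fell by 0.91 on the log2 scale (95% interval −1.22 to −0.61, adjusted p = 0.0137 from limma), to 53.1% of the parental signal. The arrays measure RNA from whole cultures, so fewer expressing cells and less RNA per cell cannot be told apart.

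Between BORG/sgTRIM28 and parental cells Id2 differed by 1.10 log2 units, or 2.14-fold (95% interval 0.79 to 1.41). The adjusted p was 0.0699 in limma, above the threshold of 0.05, although the change ranked 87 from the highest and its unadjusted p was 0.000117. Id2 was called under 4 of 14 limma alternatives, for example at an adjusted p of 0.0114 when 1 cluster per gene was tested.

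Id3, at chr4:136143822-136145392, encodes an ID protein that acts together with Id1 in tumor vessels and in metastatic growth. Its 2 parental arrays read 9.96 and 9.92, its BORG arrays 8.88 and 9.07, and its BORG/sgTRIM28 arrays 10.27 and 10.18. The BORG arrays were again the lowest by a wide gap, with 0.84 log2 units to the nearest parental array, and the BORG/sgTRIM28 arrays lay just above the parental ones with 0.22 between them. In BORG cells Id3 fell by 0.96 on the log2 scale against parental cells (95% interval −1.25 to −0.67, adjusted p = 0.00969 from limma) and by 1.25 against BORG/sgTRIM28 cells (95% interval −1.53 to −0.96, adjusted p = 0.00356 from limma). This left 51.3% and 42.2% of the signal. The difference of 0.28 between BORG/sgTRIM28 and parental cells did not pass the test (95% interval −0.01 to 0.57, adjusted p = 0.582 from limma), so the order of these neighbours is not established.

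Id1, at chr2:152736251-152737410, is the Id gene most often used as a readout of BMP signaling. It read 8.84 and 8.83 in parental, 8.37 and 8.53 in BORG and 9.14 and 9.04 in BORG/sgTRIM28 cells. The 3 groups did not overlap and stood in the same order as for Id2 and Id3, over a span of 0.77 log2 units. Relative to BORG/sgTRIM28 cells Id1 fell by 0.64 log2 units in BORG cells (95% interval −0.92 to −0.36, adjusted p = 0.0252 from limma), to 64.2% of the signal. Against parental cells its change was −0.38 (95% interval −0.66 to −0.10, adjusted p = 0.117 from limma), which did not pass, and BORG/sgTRIM28 cells differed from parental cells by 0.26 (95% interval −0.02 to 0.54, adjusted p = 0.61 from limma). Whether Id1 changed less than Id2 or Id3 was not tested.

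**Figure D1:**
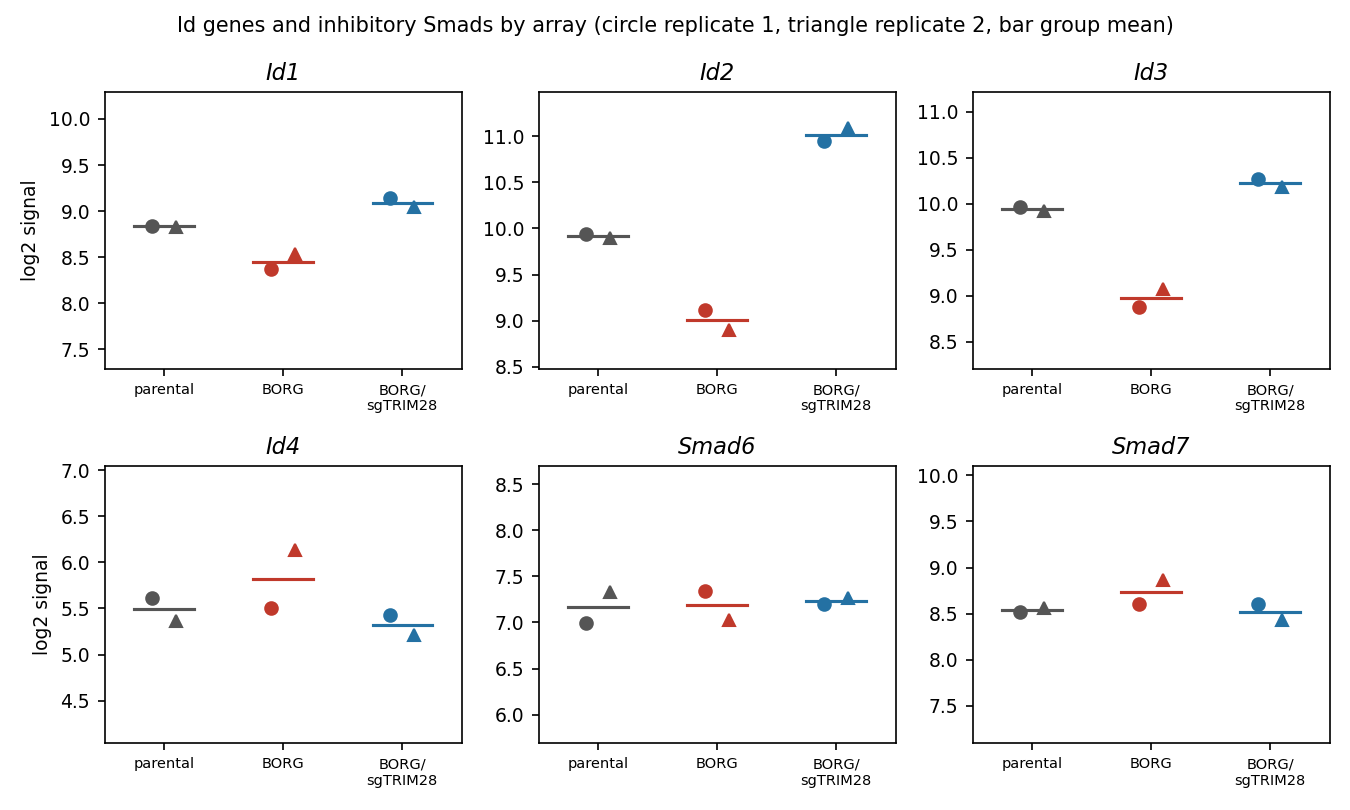
Log2 signal of each member (y axis, log2 units, each panel spanning the same range around the gene's mean) on the 2 arrays of each group (x axis), with circles for replicate 1, triangles for replicate 2 and bars for group means. For Id1, Id2 and Id3 both BORG arrays lie under all other arrays, with Id2 at 9.11 and 8.90 in BORG cells against 10.95 and 11.09 in BORG/sgTRIM28 cells, while Smad6 stays between 7.00 and 7.34.

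Id4, at chr13:48261116-48266028, encodes the ID protein with a known role in mammary stem and basal cells. Its signals were 5.61 and 5.36 in parental, 5.51 and 6.13 in BORG and 5.43 and 5.21 in BORG/sgTRIM28 cells. The BORG arrays differed from each other by 0.62, the widest gap between replicates of any member in any group, and 1 of them lay between the parental arrays. Id4 was the member with the widest intervals, and its mean was higher, not lower, in BORG cells. The change was 0.33 against parental cells (95% interval −0.23 to 0.88, adjusted p = 0.492 from limma) and 0.50 against BORG/sgTRIM28 cells (95% interval −0.06 to 1.05, adjusted p = 0.254 from limma), and neither passed the test. Without BORG replicate 2 these changes were 0.02 and 0.19, and without BORG replicate 1 they were 0.64 and 0.81, so that 1 array set much of their size. The change of −0.17 between BORG/sgTRIM28 and parental cells (95% interval −0.72 to 0.39) did not pass either, and was −0.04 without parental replicate 1 and −0.29 without parental replicate 2.

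Smad6 and Smad7, the feedback inhibitors, were called in none of the 3 comparisons in limma. Smad6, at chr9:63953076-64022085, read 7.00 and 7.34 in parental, 7.34 and 7.03 in BORG and 7.20 and 7.26 in BORG/sgTRIM28 cells. All 3 groups overlapped. Its change was 0.02 against parental cells (95% interval −0.39 to 0.43) and −0.05 against BORG/sgTRIM28 cells (95% interval −0.46 to 0.36), so a change of Smad6 as large as that of Id3 lay outside both intervals.

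Smad7, which lies on chromosome 18, read 8.52 and 8.57 in parental, 8.61 and 8.87 in BORG and 8.61 and 8.43 in BORG/sgTRIM28 cells. The BORG arrays were the highest, by 0.04 over the nearest parental and 0.0025 over the nearest BORG/sgTRIM28 array, and parental and BORG/sgTRIM28 cells overlapped. Smad7 differed by 0.19 between BORG and parental cells (95% interval −0.14 to 0.53, adjusted p = 0.5 from limma) and by 0.22 between BORG and BORG/sgTRIM28 cells (95% interval −0.11 to 0.55, adjusted p = 0.397 from limma). Without BORG replicate 2 these differences of Smad7 were 0.06 and 0.09, and without BORG replicate 1 they were 0.32 and 0.35. Between BORG/sgTRIM28 and parental cells the changes of Smad6 and Smad7 were 0.07 and −0.03, with intervals from −0.34 to 0.48 and from −0.36 to 0.30.

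Counted together, BORG cells had 2 of the 6 members lower than parental cells, and 0 higher, with adjusted p under 0.05, where 2.98% of all clusters were lower and 4.12% higher. In BORG against BORG/sgTRIM28 cells 3 members were lower and 0 higher, where 4.24% of all clusters were lower and 5.31% higher. With each array centred on its median the called clusters of that comparison split into 1252 lower and 2446 higher in place of 1753 and 2194, and the same 3 members were called lower. In BORG/sgTRIM28 against parental cells 0 of the 6 members passed in limma, where 0.0726% of all clusters were lower and 0.0484% higher. At an unadjusted p under 0.05 the count was 1 of the 6 members and 3597 of the 41345 clusters. The median change of the 6 members was −0.18, −0.34 and 0.16 in these comparisons in turn, against −0.03, −0.05 and 0.01 over all clusters. The comparisons share arrays, so that BORG cells reading low enters the first 2 of them alike.

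Counted by separation alone, 3 members had both BORG arrays under both parental arrays and 1 had them above, while 28.8% and 21.7% of all clusters did so. Against BORG/sgTRIM28 cells 3 members were separated with BORG lower and 2 with BORG higher, while 31.9% and 20.5% of all clusters were. In BORG/sgTRIM28 against parental cells 3 members were separated and higher, while 22.8% of all clusters were. Separation of 2 arrays from 2 was thus common over the array, and the exact permutation test cannot go below p = 0.333 in this design.

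Against parental cells Id2 and Id3 were each called under 12 of 14 limma alternatives. Without parental replicate 1 the adjusted p was 0.1 for Id2 and 0.0827 for Id3 in limma, and without parental replicate 2 it was 0.0955 and 0.0779, with changes between −0.89 and −0.99. Against BORG/sgTRIM28 cells Id2 and Id3 were called under all 14 limma alternatives and Id1 under 7 of them. The Id1 call was lost with only the 4 arrays compared (adjusted p = 0.0644 from limma), which leaving out a parental array repeats. It was also lost without BORG/sgTRIM28 replicate 1 or 2 (changes of −0.59 and −0.69) and without BORG replicate 1 (−0.56).

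**Figure D2:**
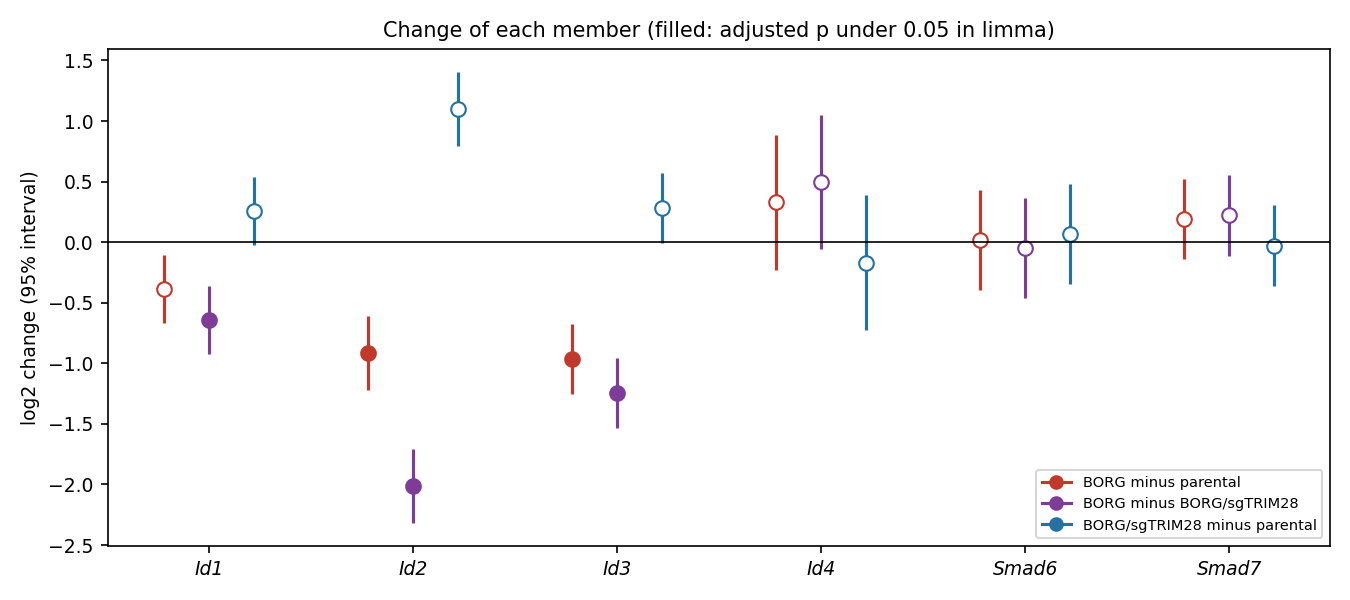
Log2 change of each member (x axis) in the 3 comparisons (colors), with the 95% interval from limma as a line (y axis, log2 units) and a filled circle where the adjusted p over all clusters is under 0.05. The filled circles are Id2 and Id3 in BORG against parental cells and Id1, Id2 and Id3 in BORG against BORG/sgTRIM28 cells, all under 0, and the intervals of Id4, Smad6 and Smad7 span 0 throughout.

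The rest of the pathway was read from lists of its parts. Of the BMP ligands all 14 listed were measured and 0 were called in any of the 3 comparisons in limma, with changes between −0.33 and 0.32. Among them Bmp2 read 3.54 and 3.41 in parental, 3.30 and 3.62 in BORG and 3.53 and 3.82 in BORG/sgTRIM28 cells. Bmp4 ranged from 3.94 to 4.43 over the 6 arrays. The ligand list averaged 4.70 to 4.83 log2 units per array, under the median of each array. Without a detection value, a ligand that was not called is not shown to be expressed and unchanged. Of 11 receptors and co-receptors 10 were measured, of which 2 rose in BORG against parental cells. Acvr1, a type I receptor for BMPs, rose by 0.65 (adjusted p = 0.04 from limma), from 7.43 and 7.67 to 8.27 and 8.13. Eng, a co-receptor, rose by 0.51 (adjusted p = 0.0488 from limma), from 4.40 and 4.41 to 4.97 and 4.86, all under the medians of the arrays. Both calls were lost with only the 4 arrays compared, at adjusted p of 0.0861 and 0.0935 in limma. Leaving out a BORG/sgTRIM28 array repeats that fit. They were also lost without any 1 of those 4 arrays, with changes of 0.53 to 0.77 for Acvr1 and 0.46 to 0.56 for Eng. The receptors Bmpr1a and Bmpr2 changed by 0.00 and 0.17 and were not called, and 0 receptors passed in limma in the other comparisons.

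Outside the targets, the largest changes of these lists in BORG cells were those of antagonists. Fst, the gene of follistatin, which binds activins and some BMPs, read 6.37 and 6.79 in parental, 7.80 and 8.00 in BORG and 5.88 and 5.89 in BORG/sgTRIM28 cells. Its BORG arrays were the highest of the 6 and the groups did not overlap. Fst rose by 1.32 against parental cells (SE 0.167, adjusted p = 0.0108 from limma) and by 2.01 against BORG/sgTRIM28 cells (SE 0.167, adjusted p = 0.00227 from limma), the reverse of the order of Id2. Fstl3, a relative of follistatin, rose by 1.18 and 1.20 (adjusted p = 0.00937 and 0.00729 from limma), from 8.58 and 8.72 in parental cells and 8.67 and 8.59 in BORG/sgTRIM28 cells to 9.98 and 9.67. Nog, the gene of the BMP antagonist noggin, lay 0.48 log2 units lower in BORG cells than with the guide (adjusted p = 0.0466 from limma). Its mean was 4.38 against 4.86, and each of its signals lay under the median of its array. The call of Nog was lost with only the 4 arrays compared (adjusted p = 0.0988 from limma), which leaving out a parental array repeats. It was also lost without any 1 of those 4 arrays, with changes of −0.53 to −0.43. In all, 14 of 16 antagonists were measured, with 2 higher in the first comparison, 2 higher and 1 lower in the second and 0 called in BORG/sgTRIM28 against parental cells in limma. Against parental cells the call of Fst was lost without parental replicate 1 or BORG replicate 1, at adjusted p up to 0.0603, and that of Fstl3 without either parental array, at up to 0.0788. Against BORG/sgTRIM28 cells that of Fstl3 was lost without either BORG/sgTRIM28 array, at up to 0.0612.

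Among the 11 other Smads, Smad ligases and corepressors, all measured, Smad3, a mediator of TGF-beta and activin signals, rose in BORG cells. It read 7.26 and 7.32 in parental, 8.00 and 7.94 in BORG and 7.21 and 6.95 in BORG/sgTRIM28 cells, which gave changes of 0.68 (adjusted p = 0.0327 from limma) and 0.89 (adjusted p = 0.0123 from limma). Smad9, one of the Smads that BMP receptors activate and itself a BMP target, fell by 0.58 against BORG/sgTRIM28 cells (adjusted p = 0.04 from limma), from 5.50 and 5.64 to 5.04 and 4.94. The call of Smad9 was lost with only the 4 arrays compared (adjusted p = 0.0759 from limma), which leaving out a parental array repeats. It was also lost without any 1 of those 4 arrays, with changes of −0.65 to −0.51. The first call of Smad3 was lost without any 1 parental or BORG array, with changes of 0.65 to 0.72. Its second call was lost without replicate 1 of BORG or replicate 2 of BORG/sgTRIM28 cells, with changes of 0.86 and 0.76. Smad1 and Smad5 had changes of −0.43 and 0.24 against parental cells, and Smad4 of −0.07, and none of these 3 passed.

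Of 11 other BMP targets 9 were measured, and the 1 called in BORG against parental cells rose, opposite to Id2 and Id3. Hey1, a transcriptional repressor that is a target of both BMP and Notch signals, read 7.24 and 7.21 in parental, 9.35 and 9.13 in BORG and 8.16 and 8.14 in BORG/sgTRIM28 cells. It rose in BORG cells by 2.02 against parental cells (adjusted p = 0.00122 from limma) and by 1.09 against BORG/sgTRIM28 cells (adjusted p = 0.00549 from limma), where the adjusted p was 0.0509 without BORG/sgTRIM28 replicate 2. Atoh8, a basic helix-loop-helix gene, read 5.47 and 6.18 in BORG cells and between 6.44 and 6.69 elsewhere, but its changes of −0.73 and −0.74 did not pass the test (adjusted p = 0.154 and 0.131 from limma). Counting Smad9, the list held 1 gene higher and 0 lower in BORG against parental cells and 1 higher and 1 lower against BORG/sgTRIM28 cells, with median changes of −0.16 and −0.15.

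The partners of the ID proteins, Tcf3, Tcf4 and Tcf12, were all measured and 0 of the 3 passed in any comparison in limma. Tcf3 came nearest, with a change of 0.53 in BORG against parental cells (adjusted p = 0.0525 from limma), from 8.54 and 8.59 to 9.16 and 9.03. Tcf12 had the opposite sign, at −0.42 (adjusted p = 0.198 from limma).

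**Figure D3:**
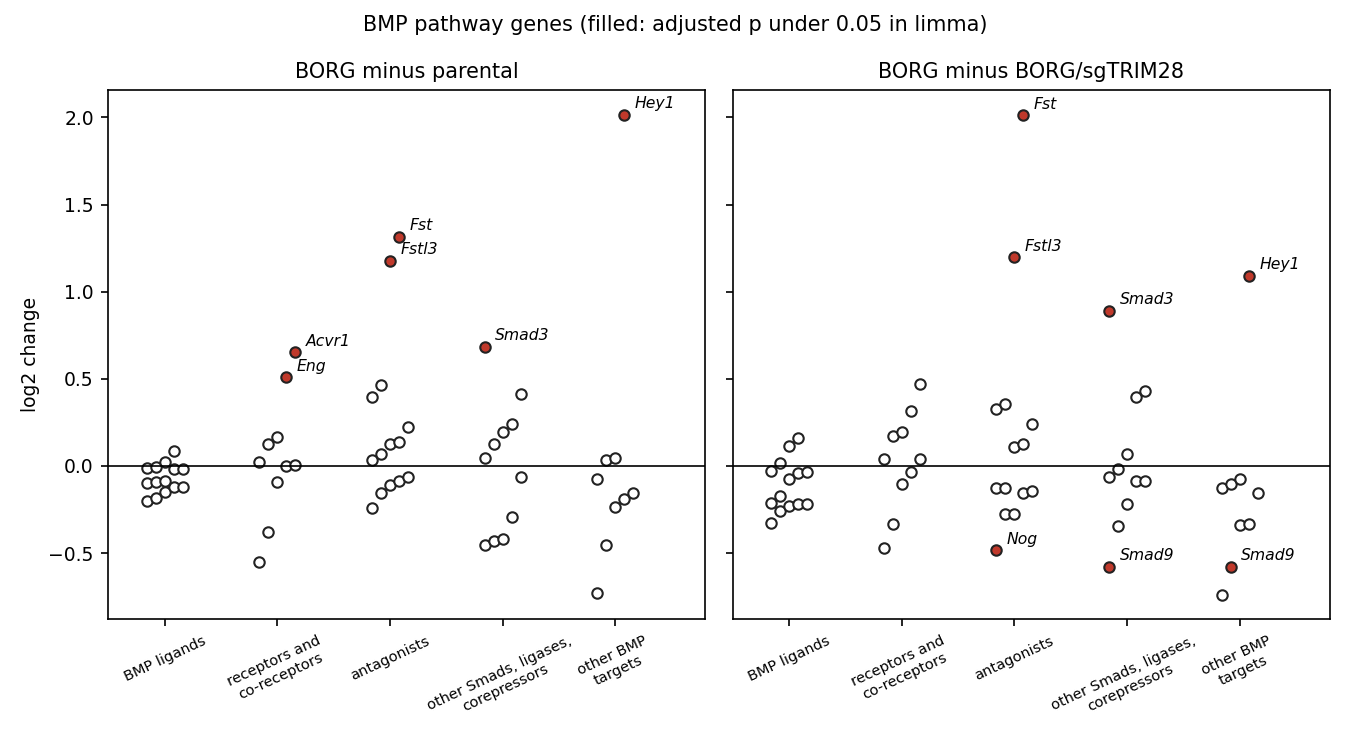
Log2 change (y axis, log2 units) of each measured gene of the 5 BMP pathway lists (x axis) in BORG against parental cells (left) and against BORG/sgTRIM28 cells (right), with filled circles for an adjusted p under 0.05 in limma. Ligands stay between −0.33 and 0.16, while Fst, Fstl3, Smad3 and Hey1 are filled and above 0 in both panels, Hey1 reaching 2.02 and Fst 2.01. Smad9 and Bambi each belong to 2 lists and are drawn in both.

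Members were also compared by the shape of their profile, as the root mean square difference over the 6 arrays after each gene was centred on its own mean. Id2 and Id3 differed by 0.40 log2 units, Id1 and Id3 by 0.28 and Id1 and Id2 by 0.58, whereas Id2 and Id4 differed by 1.06. Id2 and Id3 were the members that spanned at least 1 log2 unit, and each was set against the 2312 other genes that did. Nearest to Id2 were Gm20939 (0.17), Hmox1 (0.21), the gene of heme oxygenase, Aloxe3 (0.23), a lipoxygenase-type enzyme of the epidermis, and Zfp97 (0.26), a zinc finger gene. In these 4 genes the BORG mean was 0.71 to 0.96 log2 units under the parental mean and the BORG/sgTRIM28 mean 0.72 to 0.95 above it, against 0.91 and 1.10 for Id2. Nearest to Id3 were Elmo1 (0.06), an activator of Rac in engulfment, Gm16973 (0.07), Serpinb9 (0.07), an inhibitor of granzyme B, and Prpf3 (0.07), a splicing factor, with BORG means 0.89 to 1.12 under the parental mean. These genes were chosen for their likeness to the members over the same arrays, which is a description.

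**Figure D4:**
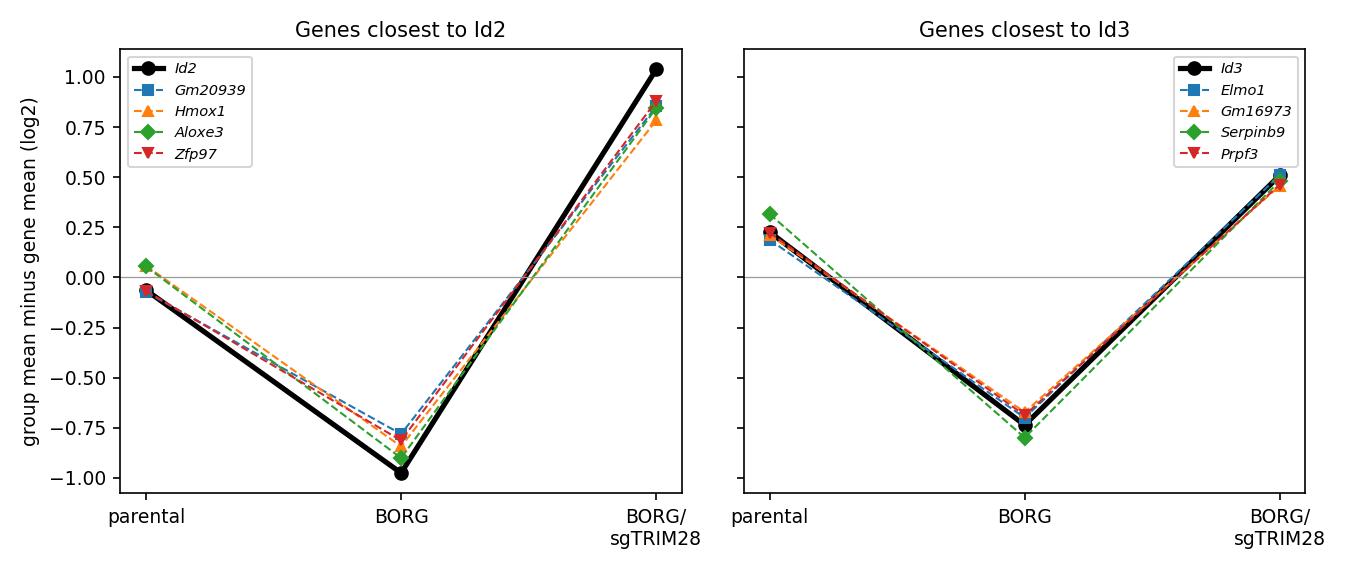
Group mean minus the gene's mean over the 3 groups (y axis, log2 units) for Id2 (left, black) and Id3 (right, black) and the 4 genes nearest to each (dashed lines) in parental, BORG and BORG/sgTRIM28 cells (x axis). All lines are lowest in BORG cells and highest in BORG/sgTRIM28 cells, and the 4 genes nearest to Id3 differ from it by 0.06 to 0.07 log2 units (root mean square).

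Genes that mark cell types differed between the same groups. Of 7 epithelial markers 6 were measured and 3 were higher in BORG cells in both comparisons, namely Krt8, Krt18 and Krt14, with changes of 1.31, 1.49 and 1.32 against parental cells and 1.24, 1.10 and 1.12 against BORG/sgTRIM28 cells. Krt19, Epcam and Cdh1 were not called, and Krt19 changed by 0.19 and 0.08. The epithelial list averaged 7.45 to 7.49 log2 units in the parental arrays, 8.18 to 8.25 in BORG and 7.65 to 7.75 in BORG/sgTRIM28. Of the fibroblast markers all 7 were measured, and in both comparisons Col1a1 and Pdgfrb were higher and Pdgfra was lower in BORG cells, with list means of 6.53 to 6.54, 6.51 to 6.63 and 6.35 to 6.42. Col1a2 and Col3a1 changed by 0.004 and −0.21 against parental cells and were called in no comparison. Pdgfra, a receptor of mesenchymal cells, read 12.28 and 12.29 in parental and 10.93 and 11.15 in BORG cells, and Dcn and Lum read 3.92 or less on every array. Of the leukocyte (5 of 6 measured) and endothelial (4 of 4) markers 0 were called in limma, with Ptprc between 3.39 and 3.64 and Pecam1 between 4.57 and 5.06. In these lists Cd68, a lysosomal protein of macrophages that other cells also make, read 8.04 to 8.37, and Cdh5, the gene of VE-cadherin, read 5.87 to 7.16, all above the medians of the arrays. The Cdh5 difference of −0.86 between BORG/sgTRIM28 and parental cells did not pass the test (adjusted p = 0.365 from limma). Of the 3 adipocyte markers Fabp4 was called in 1 comparison, with BORG cells 1.60 log2 units above BORG/sgTRIM28 cells. Its means were 6.33 in parental, 6.16 in BORG and 4.56 in BORG/sgTRIM28 cells. The Fabp4 difference of −1.77 between BORG/sgTRIM28 and parental cells did not pass the test (adjusted p = 0.0908 from limma). Leaving out 1 parental array ended the calls of Krt8, Krt14, Col1a1 and Pdgfrb against parental cells, at adjusted p up to 0.114 in limma, and leaving out 1 BORG/sgTRIM28 array those of Krt8, Krt18, Krt14, Col1a1, Pdgfra and Fabp4 against BORG/sgTRIM28 cells, at up to 0.0887. The part of these differences in those of the Id genes was not tested.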

How the data were processed

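RNA of each sample was hybridised to 1 Affymetrix Mouse Gene 2.0 ST array, with 2 arrays in each of 3 groups. The authors deposited log2 signals, 1 per transcript cluster and array, normalized in Affymetrix Expression Console. Transcriptome Analysis Console is also named in the submitters' notes. Their versions, like the summarization method and the genome build of the array design, were not given in the sources used here. A normalization across arrays removes differences in total signal, so each value is relative to the rest of its array. The number of arrays limits the precision.

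Of 41345 clusters, 23521 had 1 symbol in the platform annotation, 1820 had several and 16004 had none. A cluster with several symbols was not used for a gene. Gene positions and promoter sequences came from RefSeq (GRCm38.p6).

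Group means were fitted to all 6 arrays with limma 3.58.1 in R 4.3.3 (lmFit, eBayes, 3 residual and 3.04 prior degrees of freedom). P-values were two-sided and adjusted by Benjamini-Hochberg over the 41345 clusters of each comparison, with a threshold of 0.05. Differences and intervals are in log2 units. The fit was tested on simulated data.

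The members, lists, motifs and tests were chosen with earlier results of these data known. Named genes were the 6 members, up to 3 called genes of each list per comparison with the largest change, Trim28, and for each member spanning at least 1 log2 unit the 4 nearest profiles. Other genes named from the lists were chosen after their values were seen. The alternatives tried were median centring, quantile normalization, a trend of the variance with signal, a block for the replicate number, a fit of the 4 arrays concerned, a test of the brighter clusters (above the median), of 1 cluster per gene or of the mean over a gene's clusters, a 2-fold rule, the methods' t-test, and leaving out each array. The 2-fold rule called changes of at least 2-fold at an unadjusted p under 0.05 from limma. Leaving out an array of the group not compared gives the same result as the fit of the 4 arrays concerned. The tallies of alternatives therefore count that fit more than once. Running the alternatives for the called list genes was added after the data were seen. The test of the brighter clusters did not include Eng and Nog, which lay under the median signal.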

Additional observations from a re-analysis of the deposited data

How the results depend on the processing

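Of 270 values of member changes under the alternatives, 243 kept their direction and their side of the threshold, 16 lost and 4 gained the call and 7 turned direction. The turned values were all of genes without a call. Smad6 changed to −0.0114 under quantile normalization and ranged from −0.15 (without parental replicate 1) to 0.19 when 1 array was left out in BORG against parental cells, with −0.14 without BORG replicate 1. It changed to 0.00956 under median centring and ranged from −0.21 to 0.11 (without BORG replicate 2) in BORG against BORG/sgTRIM28 cells, and from −0.10 (without parental replicate 1) to 0.24 in BORG/sgTRIM28 against parental cells. Smad7 ranged from −0.118 to 0.0625 (without BORG/sgTRIM28 replicate 2) in the last comparison.

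In BORG against parental cells the 2 members called became 0 with the methods' t-test and with the 2-fold rule, and 0 to 2 when 1 array was left out. The 2933 clusters called became 1576 with only the 4 arrays compared, 4486 among clusters above the median signal, 0 with the methods' t-test (6181 unadjusted) and 1367 with the 2-fold rule, and 499 to 3328 when 1 array was left out. In BORG against BORG/sgTRIM28 cells the 3 members became 0 with the methods' t-test and 2 to 3 without 1 array, and the 3947 clusters became 2086 with 4 arrays, 0 with the methods' t-test (6413 unadjusted), 1633 with the 2-fold rule and 873 to 4132 without 1 array. In BORG/sgTRIM28 against parental cells 1 member, Id2, was called with the variance trend, among clusters above the median signal, with 1 cluster per gene, with the mean of a gene's clusters and with the 2-fold rule, and 0 without 1 array. The 50 clusters became 1 with the block, 1 with 4 arrays, 116 with the trend, 77 above the median, 135 with 1 cluster per gene, 133 with the mean of clusters, 0 with the methods' t-test (4105 unadjusted), 257 with the 2-fold rule and 0 to 1 without 1 array. The 2-fold rule used an unadjusted p under 0.05 from limma, so its counts, and its call of Id2, are not held to the adjusted threshold. Apart from the settings that test fewer clusters or fit fewer arrays, the cause was not tested.

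Same-numbered arrays did not deviate together across all clusters (r of −0.01, −0.04 and 0.04), so the number gave no sign of a pairing. A batch that affects part of the clusters was not tested. With the replicate block 2 members stayed called in each of the first 2 comparisons, Id1 reaching an adjusted p of 0.0534 in limma. Of the list genes, Acvr1, Eng, Nog and Smad9 were called in 6 of 14, 4 of 13, 2 of 13 and 4 of 14 limma alternatives, and Smad3 in 9 and 12 of 14. Hey1 in BORG against parental cells and Fst in BORG against BORG/sgTRIM28 cells were called in 14 of 14.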

Other observations

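Targets of TGF-beta signaling, a pathway that Smad7 also inhibits, were listed beside the BMP genes, and 7 of 8 were measured. Ldlrad4, which encodes an inhibitor of TGF-beta signaling, read 6.51 and 6.46 in parental, 8.05 and 7.71 in BORG and 6.31 and 6.15 in BORG/sgTRIM28 cells. It rose in BORG cells by 1.40 against parental cells and by 1.65 against BORG/sgTRIM28 cells (adjusted p = 0.00647 and 0.0029 from limma), and the first call was lost without either parental array, at up to 0.0627. Fn1, the gene of fibronectin, read 10.69 on both parental arrays, 12.02 and 11.80 in BORG cells and 12.20 and 11.98 in BORG/sgTRIM28 cells. It was higher than in parental cells in both other groups, by 1.22 and 1.40 (adjusted p = 0.0072 and 0.0373 from limma). The first call was lost without either parental array, with a change of 1.22 in each case. The second was lost with only the 4 arrays compared, which leaving out a BORG array repeats, and without any 1 of those 4. Skil and Pmepa1 had changes of −0.42 and −0.42 in BORG against parental cells and were not called.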
